A study of Mus musculus with 6 samples.

Results

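The protein kinase C isoforms are the products of 8 genes: Prkca, Prkcb, Prkcd, Prkce, Prkch, Prkci, Prkcq and Prkcz. All 10 probe sets that the platform annotation ties to 1 of these symbols alone were used, out of 34760 probe sets, and the 8 genes were among 19937 genes with a symbol of their own. The family was selected on a difference measured on these same arrays, since Prkca was already known to be among the genes that differ most between the genotypes. The differences of the 8 isoforms are therefore given as a description, with no p-value printed. Where an isoform is said to be called, past the threshold given below, this too is a description and not a test.

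The data are 6 Affymetrix mouse gene arrays, 1 per mouse, of RNA from sorted pre-granulocyte-macrophage progenitors (PreGMs). These are bone marrow progenitors gated as Lin-, Sca1- and Kit+ and without CD150, CD41, FcγRII or endoglin. Of the female C57BL/6 mice, 3 were Cebpa flox/flox and 3 were Cebpa flox/flox;Mx1Cre. All 6 carried the floxed Cebpa alleles and all had received pIC, a double-stranded RNA that induces interferon, 18 days before sorting, so the Cre transgene is the labelled difference. The Mx1 promoter answers to interferon in many cell types, so Cre is not limited to PreGMs, and no age is given. The comparison asks how PreGM transcripts change when Cebpa, which encodes the myeloid transcription factor C/EBPα, is deleted.

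The targeted gene went against the labels. Cebpa read 6.93, 6.71 and 6.85 log2 units in the arrays labelled flox/flox and 8.71, 9.31 and 8.98 in those labelled Mx1Cre, so it was higher where a deletion is labelled, and whether its probes lie in the deleted part was not analysed here. Every direction given here rests on the group names in the labels, and exchanging them would turn its sign. Of the measured markers of the gate, Kit was bright in both groups (10.5 ± 0.090 and 10.6 ± 0.084, SD, n = 3) and Slamf1, which encodes CD150, was below the lower quartile of gene levels in both. Of the antigens the gate excludes, the transcripts of CD41, endoglin and FcγRII were not below the lower quartile. Fcgr2b, which encodes an FcγRII, read 6.74 ± 0.14 and 7.16 ± 0.10 (SD, n = 3) and was called higher by 0.43 log2 units (limma adjusted p = 0.0410). Itga2b, which encodes CD41, read 7.95 ± 0.13 and 7.63 ± 0.099, and Eng, which encodes endoglin, 7.37 ± 0.11 and 7.31 ± 0.13 (SD, n = 3). The means of these genes were all above the median of gene means, 6.64. Of the 9 measured gate and identity genes 4 rose and 1 fell, with Flt3, a cytokine receptor of early progenitors, up by 2.15 log2 units and Fcgr3, an Fcγ receptor, down by -1.04. Over all genes, 979 differed at a limma adjusted p under 0.05, which is the threshold for a call throughout. Values are RMA log2 units, a difference is Mx1Cre minus flox/flox, and levels of different probe sets cannot be compared with each other. A place above or below a quartile or the median is thus a rough guide, and does not show that a gene is expressed or absent. In such sorted but bulk RNA, fewer cells of a type and less RNA per cell cannot be told apart.

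Protein kinase C enzymes are serine/threonine kinases that relay signals from receptors that activate phospholipase C. The conventional isoforms (cPKC, here Prkca and Prkcb) need both diacylglycerol and calcium, the nPKC isoforms (Prkcd, Prkce, Prkch and Prkcq) need diacylglycerol but not calcium, and the atypical isoforms (aPKC, Prkci and Prkcz) answer to neither and work with polarity proteins. In blood cells the family is best known from T cell receptor and mast cell signalling, and phorbol esters, which mimic diacylglycerol, drive myeloid cells to differentiate.

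The upstream promoter sequences of the 3 isoforms that differed most are shown because Prkca and Prkcq were lower and Prkcd higher in the same arrays. Each run is the 250 bases before an annotated start site in GRCm38.p6, from RefSeq, written 5′ to 3′ on the gene's strand. Prkca lies on the minus strand at chr11:108343889-108344138, Prkcq on the plus strand at chr2:11172132-11172381, and Prkcd on the minus strand at chr14:30626209-30626458. Capitals mark matches to GGGCGG, the GC box letters, on either strand.
Prkca: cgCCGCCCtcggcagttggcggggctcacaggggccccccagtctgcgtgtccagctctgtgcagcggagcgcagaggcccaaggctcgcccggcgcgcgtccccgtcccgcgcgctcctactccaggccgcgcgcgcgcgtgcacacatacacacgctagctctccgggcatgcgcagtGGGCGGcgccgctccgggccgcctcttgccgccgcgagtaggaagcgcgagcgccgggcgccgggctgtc
Prkcq: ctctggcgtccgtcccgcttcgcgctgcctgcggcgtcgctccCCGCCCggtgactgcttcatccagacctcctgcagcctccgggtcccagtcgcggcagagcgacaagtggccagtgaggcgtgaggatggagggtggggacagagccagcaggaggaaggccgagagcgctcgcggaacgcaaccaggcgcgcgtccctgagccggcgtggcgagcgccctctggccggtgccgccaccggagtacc
Prkcd: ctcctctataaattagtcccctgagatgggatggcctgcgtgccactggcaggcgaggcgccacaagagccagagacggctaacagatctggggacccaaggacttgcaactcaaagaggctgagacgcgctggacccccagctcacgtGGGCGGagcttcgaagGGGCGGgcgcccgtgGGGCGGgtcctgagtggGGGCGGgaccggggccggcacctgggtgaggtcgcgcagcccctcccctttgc

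All 3 were rich in CpG. Prkca had 39 CpG and 76.8% G plus C, Prkcq 30 and 72.4%, and Prkcd 18 and 67.6%, against medians of 6 CpG and 52.4% over 32851 promoters of the same length. GGGCGG matched 2 times in Prkca, 1 time in Prkcq and 4 times in Prkcd, and 32.7% of all promoters hold it. The letters of a common form of the C/EBP site (TTGCNNAA), of the site of erythroid and mast cell GATA factors (AGATAA) and of the RUNX factors' site (TGTGGT), searched on both strands, matched in none of the 3 windows. Those letters occur in 3142, 3281 and 4614 of the 32851 promoters, which is 9.6% for the C/EBP form and 14.0% for the RUNX site. A further annotated Prkcd start, with its window at chr14:30610311-30610560, held 1 match to TTGCNNAA and only 1 CpG. Of the other isoforms matched in the table, Prkcb and Prkci had 17 CpG each, and the 3 annotated Prkcz windows had 25, 7 and 10. In all, 6 of the 8 isoforms were matched. These matches describe letters and not binding.

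Among the isoforms Prkca and Prkcq were lower and Prkcd was higher in the arrays labelled Mx1Cre, and the remaining 5 differed by at most 0.34 log2 units. These 3 of 8 were past the threshold, 2 lower and 1 higher, where 4.91% of all genes were called, 2.28% lower and 2.63% higher. For 6 of the 8 the flox/flox and Mx1Cre values were without overlap, against 21.6% of all genes. Nothing is read from either share, since the family was chosen with this contrast known.

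**Figure D1:**
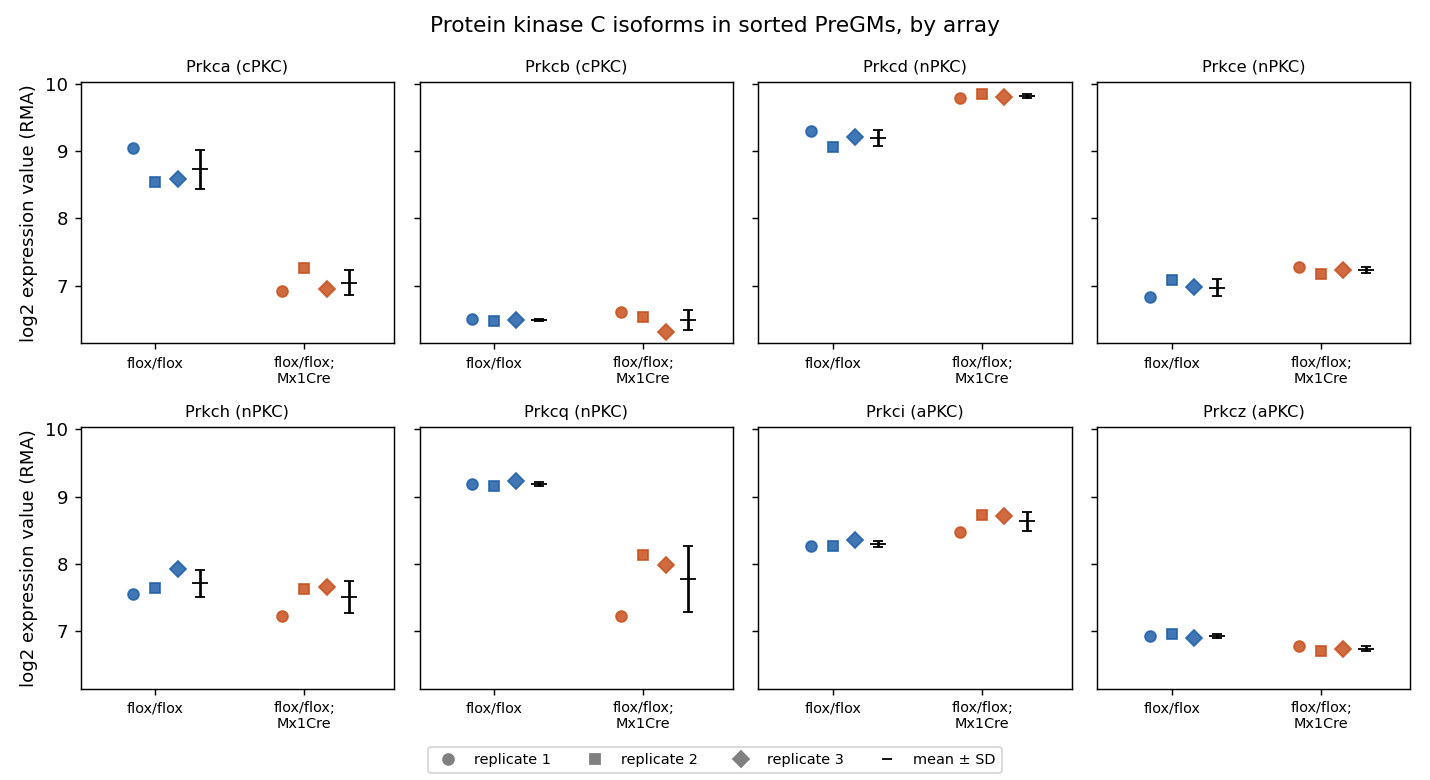
Log2 expression value (y axis) of the 8 protein kinase C isoform genes in the 3 flox/flox and 3 flox/flox;Mx1Cre arrays. Each point is 1 array, its shape is the replicate number, and the bar beside each group is the mean ± SD. Prkca and Prkcq drop clear of the flox/flox values, Prkcd lies above them, and Prkcb and Prkch overlap.

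Prkca, the conventional isoform α and a broadly expressed kinase, was the family's largest difference. It read 9.06, 8.54 and 8.59 in the flox/flox arrays and 6.92, 7.26 and 6.96 in the Mx1Cre arrays. The groups were separated by a gap of 1.28 log2 units, wider than the spread of 0.52 within the flox/flox arrays and of 0.34 within the others. The means were 8.73 ± 0.28 and 7.05 ± 0.19 (SD, n = 3 each), a difference of -1.68 ± 0.15 log2 units (SE) or 3.21-fold lower. In absolute size this was above 99.8% of all genes tested. Over 15 alternative analyses of the same arrays it ranged from -1.79 to -1.52.

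Prkcb, the other conventional isoform and the one known for B cell receptor signalling, differed by -0.00096 ± 0.097 log2 units (SE). Its flox/flox values of 6.499, 6.474 and 6.486 lay inside the range of the Mx1Cre values, 6.60, 6.54 and 6.32. The 95% interval of its difference ran from -0.22 to 0.22, given as its precision and not as a test. Its mean level, 6.49 in each group, was just below the median of all genes, 6.64.

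Prkcq, the nPKC isoform θ that carries the T cell receptor signal to NF-κB, had nearly equal flox/flox values of 9.18, 9.16 and 9.23. The Mx1Cre arrays read 7.22, 8.12 and 7.97. Every Mx1Cre value was thus at least 1.04 log2 units below the lowest flox/flox value, but replicate 1 lay well under the other two. The means of 9.19 ± 0.032 and 7.77 ± 0.49 (SD, n = 3 each) differed by -1.42 ± 0.19 log2 units (SE), or 2.67-fold lower. Without Mx1Cre replicate 1 the difference was -1.14. When all 34760 probe sets entered the fit, Prkcq was not called.

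Prkcd, the nPKC isoform δ of phagocytes and B cells, went the other way. Its flox/flox values were 9.30, 9.07 and 9.21 and its Mx1Cre values 9.80, 9.85 and 9.81. The Mx1Cre arrays lay within 0.054 log2 units of each other and all above the flox/flox arrays. From 9.20 ± 0.12 to 9.82 ± 0.028 (SD, n = 3 each), Prkcd was 1.54-fold higher, by 0.62 ± 0.091 log2 units (SE). Over the same alternatives it ranged from 0.56 to 0.68.

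Prkce and Prkch, the nPKC isoforms ε and η, were not called. Prkce read 6.84, 7.09 and 6.98 in the flox/flox arrays and 7.28, 7.18 and 7.23 in the Mx1Cre arrays, without overlap but with a gap of only 0.091. Its difference was 0.26 ± 0.094 log2 units (SE). Prkch, known from epithelium and from lymphocytes, had 2 probe sets that disagreed in sign. The brighter one read 7.55, 7.64 and 7.92 against 7.22, 7.62 and 7.66, an overlap, with a difference of -0.20 ± 0.14 (SE). The other, which the annotation ties to a lone cDNA record, read 7.37, 6.61 and 7.32 against 7.93, 6.76 and 7.84. Its difference was 0.41 ± 0.35 (SE, from the fit with all probe sets). In this second set replicate 2 was the lowest array of each group. With the mean of both sets the Prkch difference was 0.10, so no direction is given for this gene.

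Neither atypical isoform was called. Prkci, the isoform ι/λ of polarity complexes, read 8.26, 8.26 and 8.35 in the flox/flox arrays and 8.47, 8.72 and 8.71 in the Mx1Cre arrays. Its difference of 0.34 ± 0.097 log2 units (SE), without overlap, was larger in absolute size than that of 91.1% of all genes. It was called in 4 of 15 alternatives, including the fit without Mx1Cre replicate 1 (0.42). Prkcz read 6.92, 6.95 and 6.89 against 6.77, 6.70 and 6.72, and its second probe set 6.23, 6.23 and 6.27 against 6.03, 6.08 and 6.16. Both sets were lower without overlap and neither was called. The differences were -0.19 ± 0.082 log2 units (SE) and, for the second set in the fit with all probe sets, -0.16 ± 0.079 (SE). The signs of 7 isoforms were the same after centring each array and after cyclic loess, Prkcb being the exception with a value near 0.

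**Figure D2:**
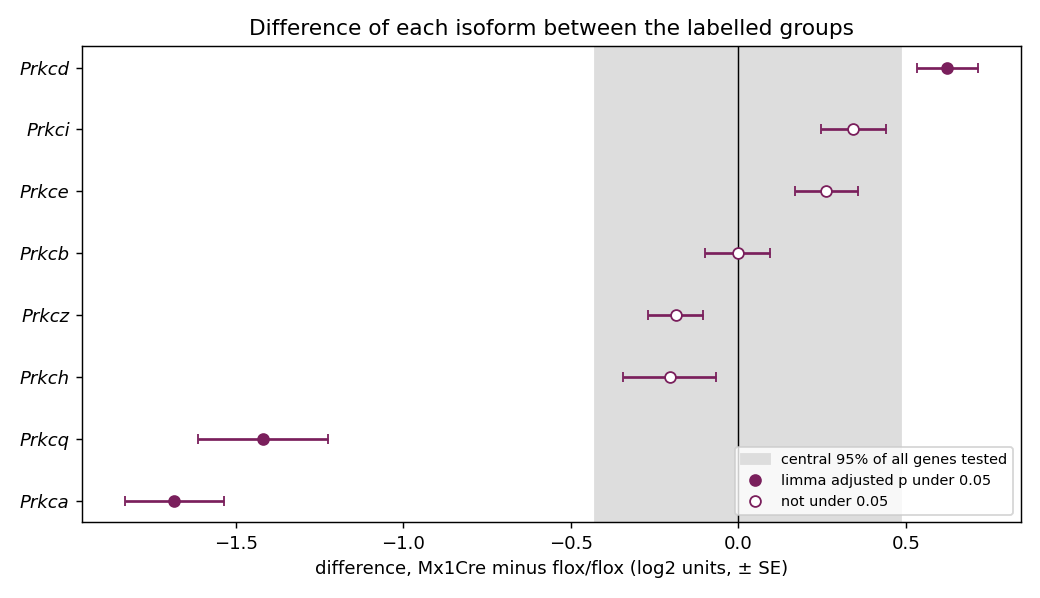
Difference between the labelled groups (x axis, log2 units, Mx1Cre minus flox/flox, bars ± SE) for each isoform (y axis), filled where the limma adjusted p was under 0.05. The fill is a description and not a test. The grey band holds the central 95% of differences of all 19937 genes, from -0.43 to 0.49, and Prkca, Prkcq and Prkcd lie outside it.

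By class, 1 of 2 conventional isoforms was called lower, 1 of 4 nPKC isoforms lower and 1 higher, and 0 of 2 atypical isoforms in either direction. Calls in both directions thus occurred within the nPKC class. Over all genes 4.91% were called. With so few genes per class, chosen with this contrast known, nothing is read from these counts.

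The genes whose profiles over the 6 arrays came closest were named by the root mean square distance of mean-centred log2 values, over 6 arrays and without a test. For Prkca they were Dpp4, which encodes the cell surface peptidase CD26 (distance 0.165 log2 units), the C-type lectin gene Clec4e (0.179) and Lilr4b (0.207), a receptor gene of the leukocyte immunoglobulin-like family. Dpp4 read 11.6, 11.3 and 11.4 against 9.93, 9.90 and 9.94. For Prkcq they were Plxdc2 (0.0892), Trp53inp1 (0.111) and Lat (0.122), the adaptor of the T cell receptor and the mast cell IgE receptor. Lat read 10.4, 10.5 and 10.3 against 8.64, 9.28 and 9.02, with Mx1Cre replicate 1 the lowest, as for Prkcq. The distance selects genes with a like order of the arrays, so nothing is read from that order. For Prkcd they were the small nucleolar RNA genes Snora73b (0.0501) and Snora44 (0.059) and the TNF family ligand gene Tnfsf8 (0.066).

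Around the kinases, most of the diacylglycerol pathway was not called. Of 121 genes in 9 lists, 107 were measured, and 3 rose, 4 fell and 100 did not pass, which is 6.54% called beside 4.91% of all genes. The median difference was -0.01 log2 units, as it was over all genes, and 90 of the 107 differed by less than 0.25. These lists were drawn up with earlier results of these arrays known. Each list is short, so at the share over all genes a list with 0 calls is unremarkable, and nothing is read from it.

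**Figure D3:**
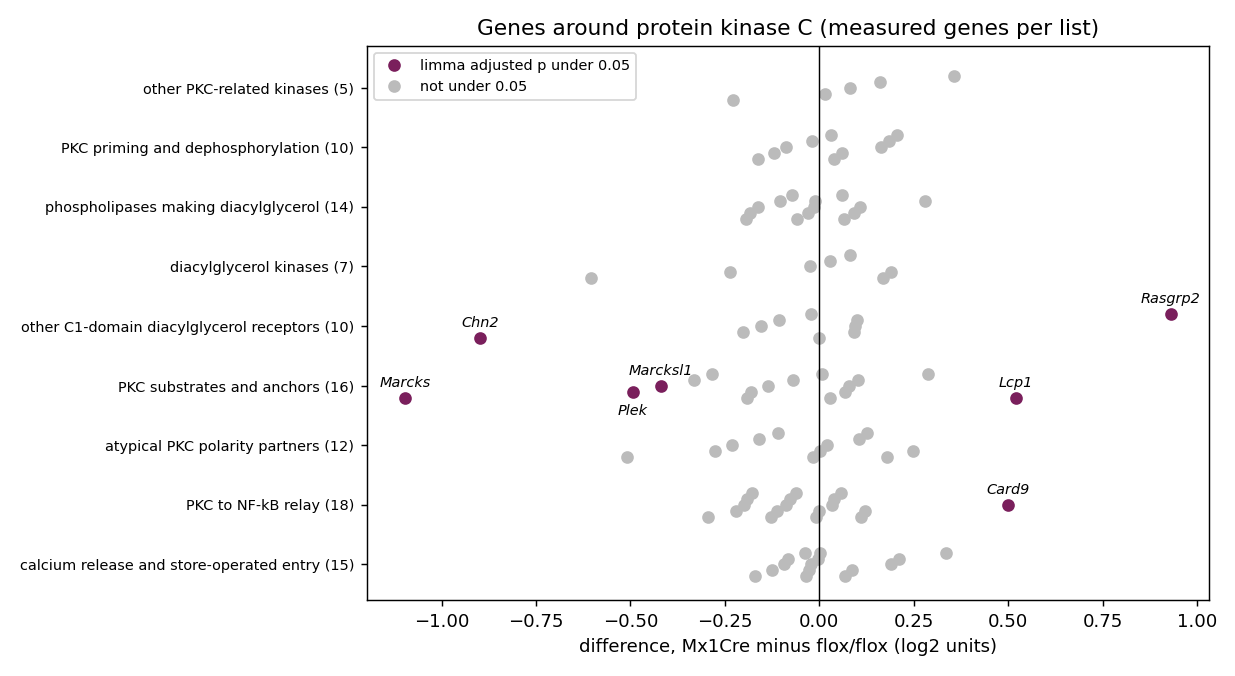
Difference between the labelled groups (x axis, log2 units, Mx1Cre minus flox/flox) of each measured gene in 9 lists (y axis, number of genes in brackets). Coloured points had a limma adjusted p under 0.05, and they number 7. Of these, 4 belong to the substrates and anchors and 2 to the list of other diacylglycerol receptors.

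Upstream of the kinases, 0 of 14 phospholipase genes passed. Plcg1 and Plcg2, the phospholipases C γ of antigen receptor signalling, differed by -0.18 ± 0.085 and -0.11 ± 0.091 log2 units (SE, limma adjusted p 0.318 and 0.677). Of 7 measured diacylglycerol kinase genes, whose products remove diacylglycerol, 0 passed. Dgka, the diacylglycerol kinase α that restrains T cell receptor signalling, read 8.19, 7.97 and 8.06 in the flox/flox arrays and 7.06, 7.77 and 7.59 in the Mx1Cre arrays. These did not overlap, and the difference of -0.60 ± 0.16 log2 units (SE, limma adjusted p = 0.0666) was called with cyclic loess, with genes above the median, with array weights and without Mx1Cre replicate 2. The 10 measured genes for priming and dephosphorylation of the kinases and the 15 for calcium release and entry also had 0 calls.

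Of 10 genes of the Rasgrp, chimaerin and Unc13 families, listed as other diacylglycerol receptors though not each need bind it, 1 rose and 1 fell. Rasgrp2, a calcium regulated exchange factor for Rap1, read 8.20, 8.09 and 8.27 in the flox/flox arrays and 8.94, 9.37 and 9.04 in the Mx1Cre arrays. It was 1.91-fold higher (0.93 ± 0.12 log2 units, SE, limma adjusted p = 0.00163). Chn2, which encodes the Rac GTPase-activating protein β-chimaerin, read 8.72, 8.83 and 8.84 against 7.61, 8.14 and 7.94 and was lower by -0.90 ± 0.13 log2 units (SE, limma adjusted p = 0.00316). Mx1Cre replicate 1 was again the lowest array. Rasgrp1, the T cell member of the Rasgrp family, differed by -0.16 ± 0.094 (SE, limma adjusted p = 0.487).

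None of the 5 measured kinases most related to protein kinase C passed. Prkd2, a protein kinase D, differed by 0.36 ± 0.11 log2 units (SE, limma adjusted p = 0.106) and Pkn2 by -0.23 ± 0.086 (SE, limma adjusted p = 0.208). Prkd1, Prkd3 and Pkn3 differed by 0.16, 0.08 and 0.02.

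Of 16 measured substrates and anchors, 3 fell and 1 rose, with a list median of -0.10 log2 units. Marcks, the myristoylated substrate that binds actin and membrane phosphoinositides, read 10.1, 10.2 and 10.2 in the flox/flox arrays and 9.18, 9.09 and 8.96 in the Mx1Cre arrays. It was lower by -1.10 ± 0.092 log2 units (SE, limma adjusted p = 0.000154) and was the only gene of the 9 lists to differ by 1 log2 unit or more. Its relative Marcksl1 and Plek, the platelet and leukocyte substrate pleckstrin, were lower by -0.42 ± 0.084 and -0.49 ± 0.098 (SE, limma adjusted p 0.0196 and 0.0190). Lcp1, the actin bundling protein L-plastin, rose by 0.52 ± 0.10 (SE, limma adjusted p = 0.0165).

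The polarity partners of the atypical isoforms had 0 of 12 calls. Sqstm1, the scaffold p62 that binds the atypical isoforms, differed by -0.51 ± 0.13 log2 units (SE, limma adjusted p = 0.0612) without overlap, and was called in several alternatives, cyclic loess and array weights among them. In the relay from protein kinase C to NF-κB 1 of 18 measured genes passed. Card9, the adaptor of myeloid C-type lectin receptors, rose by 0.50 ± 0.12 log2 units (SE, limma adjusted p = 0.0386), from 6.07 ± 0.18 to 6.57 ± 0.15 (SD, n = 3 each). Of the 7 calls, those of Rasgrp2, Chn2 and Marcks held whichever array was left out. Without flox/flox replicate 3 only these 3 calls were left, 2 lower and 1 higher, without Mx1Cre replicate 3 2 lower and 2 higher, and without Mx1Cre replicate 2 only 1 was higher. With all probe sets in the fit, Marcks and Rasgrp2 were called and the other 5 were not.

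Markers of other cell types also differed, where 2.28% of all genes were called lower and 2.63% higher. Of 23 measured T cell, NK cell and innate lymphoid markers 6 fell, 0 rose and 17 did not pass, with a median difference of -0.16 log2 units. Their summed log2 level was 156.6 to 159.6 in the flox/flox arrays and 141.0 to 147.2 in the Mx1Cre arrays. The largest differences in this sum were those of Gzmb, Trat1, Klrb1b and Rora, while Cd2, Klrd1 and Eomes read higher without a call. Gzmb, the cytotoxic protease granzyme B, read 11.5, 10.8 and 11.2 against 5.80, 7.35 and 6.99, with Mx1Cre replicate 1 the lowest. That array was also the lowest for markers of other lists, such as Fcer1a of mast cells and basophils, Vpreb1 of B lymphoid cells and the erythroid Klf1. Trat1, a T cell receptor adaptor, was lower by -2.56 ± 0.18 log2 units (SE, limma adjusted p = 4.62e-05), but its lowest array was Mx1Cre replicate 2. The other 4 that fell were the NK receptor gene Klrb1b, from 6.67 ± 0.60 to 5.04 ± 0.13 (SD, n = 3 each), and the factors of innate lymphoid cells Rora, Zbtb16 and Gata3, by 1.36, 0.90 and 0.49 log2 units. Only 2 of the 23 markers, Ncr1 and Klrb1c of NK cells, were below the lower quartile of gene levels in both groups. Cd3e, a chain common to T cells, read 6.52 ± 0.038 and 6.52 ± 0.065 (SD, n = 3 each). The part of such cells in the lower Prkca and Prkcq values was not tested.

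**Figure D4:**
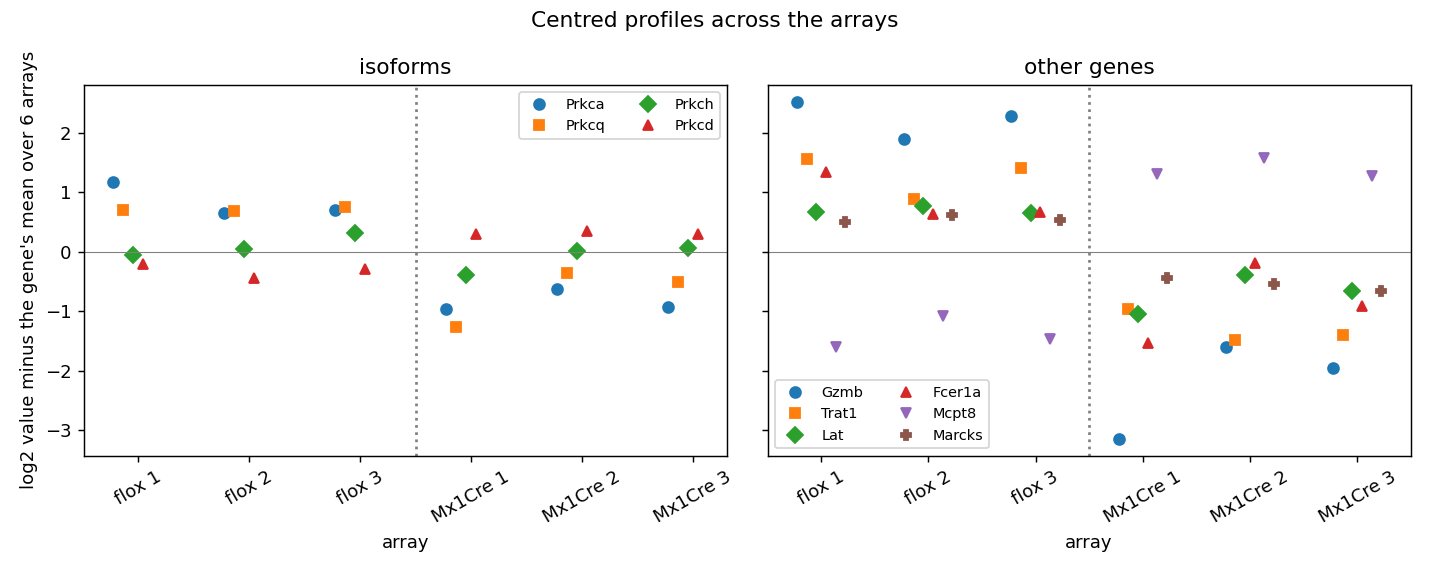
Log2 value minus the gene's own mean over the 6 arrays (y axis) for each array (x axis), with 4 isoforms on the left and 6 other genes on the right. Prkca and Prkcq lie above 0 in the flox/flox arrays and below it in the Mx1Cre arrays, as do Gzmb, Trat1, Lat, Fcer1a and Marcks, while Prkcd and Mcpt8 do the reverse. Lat was chosen for its small distance from Prkcq, and Gzmb, Trat1, Fcer1a and Mcpt8 for the largest differences in their lists. Of the 23 measured markers in the list of Gzmb and Trat1, 17 did not pass. Nothing is read from the likeness.

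Mast cell and basophil markers split, 3 of 12 rising and 3 falling, with summed log2 levels of 79.9 to 81.2 against 80.8 to 83.9. Mcpt8, a basophil protease, rose by 2.77 ± 0.14 log2 units and Fcer1a, the IgE receptor α chain, fell by 1.75 log2 units (limma adjusted p 5.04e-06 and 0.00805). Hdc and Ms4a2 also rose, by 1.54 and 1.28 log2 units, and Cyp11a1 fell by 1.23. Cpa3, the mast cell carboxypeptidase, was bright and fell from 12.0 ± 0.035 to 11.2 ± 0.067 (SD, n = 3 each, limma adjusted p = 0.000573). The mast cell proteases Mcpt4, Cma1 and Tpsab1 were below the lower quartile of gene levels in both groups, and Tpsb2, at 5.96 and 6.04, was above it. Of 8 megakaryocyte and platelet markers 3 fell and 0 rose (summed log2 level 60.3 to 60.8 against 55.6 to 56.8), with Ppbp, a platelet chemokine, lower by -1.32 ± 0.12 (SE, limma adjusted p = 0.000255), and of 9 erythroid markers 1, the carbonic anhydrase gene Car2, fell by 1.03 and 0 rose (75.3 to 79.04 against 71.7 to 74.95). None of the 11 measured B lymphoid markers passed (67.5 to 69.2 against 66.9 to 67.9). Of these, Cd79a, Ms4a1, Ebf1 and Blnk were below the lower quartile in both groups, while Cd79b read 7.95 and 8.13. Vpreb1, a surrogate light chain gene of B cell precursors, read 8.77 ± 0.12 and 8.14 ± 0.39 (SD, n = 3 each) without overlap, a difference of -0.63 (limma adjusted p = 0.0645). Their part in the isoform values was not tested.

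On the side of Prkcd, 10 of 11 monocyte and macrophage markers and 8 of 12 neutrophil markers rose and 0 fell. Their summed log2 levels were 72.5 to 74.8 against 93.5 to 95.6 and 70.8 to 73.0 against 87.3 to 93.4. Ly86, a Toll-like receptor family partner of myeloid cells, rose by 3.83 ± 0.11 log2 units and Ctsg, the granule protease cathepsin G, by 3.54 ± 0.22 (SE, limma adjusted p 1.59e-07 and 2.02e-05). The part of these markers' cells in the higher Prkcd values was not tested. Cebpa itself read higher in the same arrays, by 2.17 log2 units, so the doubt about the labels covers these rises too.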

How the data were processed

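The authors deposited a log2 value for each probe set, and the submitters' processing notes name RMA and affy, without versions. Per the labels' protocols, 20 ng of total RNA per sample was amplified before labelling. RMA quantile normalizes arrays and compresses dim differences. Probe sets were named through the platform annotation, with symbols checked by Entrez number. Of 34760 probe sets, 21640 had a single symbol, and the brightest set stood for each of 19937 genes.

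Differences were fitted with limma 3.58.1 in R 4.3.3 (lmFit, eBayes) on all 6 arrays and adjusted over all genes by Benjamini-Hochberg. The test was checked on simulated data. Replicates are separate mice, 1 array each, and their number limits the precision. The members, lists and naming rule were chosen with earlier results of these data known. The rule names all isoforms and related kinases, up to 3 called genes each way per pathway list, a few receptors and phospholipases whatever their value, the 3 nearest profiles of each called isoform, and up to 2 markers per list. Further markers, Dgka, Sqstm1 and Nrgn were named besides, after their values were seen. Promoter motifs were chosen after the values were seen. Alternatives were cyclic loess, centring on the median, 2 cutoffs for dim genes, the mean of a gene's probe sets, all probe sets in the fit, a trended robust prior, array weights, a replicate block, each array left out and a threshold of 0.1.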

Additional observations from a re-analysis of the deposited data

How the results depend on the processing

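The signs of Prkca, Prkcd and Prkcq were the same in 15 of 15 alternatives, which reuse the values the family was chosen on and lend it no support. The count of isoforms higher went from 1 to 2, by the addition of Prkci, with cyclic loess, with genes above the median only, with array weights and at a threshold of 0.1, and was 1 to 2 over the fits without 1 array. The pathway genes lower went from 4 to 7 under the same 4 alternatives, by the addition of Dgka, Sqstm1 and Nrgn. With all probe sets in the fit, 244 of the genes were called in place of 979, with 1 isoform lower and 1 pathway gene in each direction. Leaving out 1 array gave 538 to 785 genes, 2 to 4 pathway genes lower and 1 to 3 higher, where fewer arrays also lower the power. The causes of the other changes were not tested.

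With the replicate number as a block (replicate block), 1089 genes were called, 900 of them shared with the fit without it, and the counts of isoforms were 2 lower and 1 higher as before. The pathway counts with the block were 5 lower and 2 higher, with Sqstm1 added and Card9 no longer called. The deviations of same-numbered arrays correlated at 0.188, 0.0515 and 0.174, and those of different-numbered arrays at -0.245 to 0.124. The labels give only a replicate number, so the main fit has no block. Whether the numbers pair the arrays is not settled by these values. With 3 arrays a group, precision is limited, and Prkce and Prkcz were called in 0 of 15 alternatives.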
